A study of Mus musculus with 12 samples.

Results

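The glutathione S-transferase (GST) genes described here are 10 genes of 22906 with a summed value in the liver transcriptome, namely the alpha class genes Gsta1, Gsta2, Gsta3 and Gsta4, the mu class genes Gstm1, Gstm2 and Gstm3, the pi class gene Gstp1, and the theta class genes Gstt1 and Gstt3. They were chosen by their measured values in these same livers, so their levels and differences are given as a description, with no test. All 10 passed the filter on low values, a mean over all livers of 0.5 FPKM or more, which left 12000 genes to test. FPKM counts sequenced fragments per length of transcript and per mapped fragments of the library, so levels can be compared between genes.

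The livers came from male C57BL/6J mice of 21 weeks that had eaten their diet for 16 weeks. Mice of the ND group ate a normal diet and those of the HFD group a high-fat diet, while the CLE group, CLL in the sample labels, ate the HFD with 1.5% (w/w) of an ethanol extract of chrysanthemum leaves and the LU group the HFD with 0.003% (w/w) of the flavone luteolin. All groups except ND therefore shared the high-fat diet. Each group has 3 livers, which the study describes as representative of larger groups, so the spread between mice given here is that of chosen animals. In the lists of values below, the ND livers are those of mice 2, 3 and 4, the HFD livers those of mice 12, 15 and 18, the CLE livers those of mice 2, 4 and 11, and the LU livers those of mice 2, 3 and 8.

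Cytosolic GSTs join the tripeptide glutathione to reactive, fat-soluble molecules, which makes them soluble enough for export into bile and blood. The liver is their main site, where they handle drugs, plant compounds and the aldehydes that form when membrane lipids are oxidized. Their genes are known targets of the antioxidant factor NRF2 and of the xenobiotic receptors CAR, PXR and AhR, and in mice several of them, Gstp1 among them, are expressed at different levels in males and females.

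The genes of each class lie close together, as placed by GENCODE M21 on GRCm38. Gsta4 (chr9:78182774-78209349), Gsta1 (chr9:78230656-78242684) and Gsta2 (chr9:78331018-78355788) share 1 region of chromosome 9, and Gsta3 lies apart at chr1:21240589-21265661. Gstm3 (chr3:107963696-107969283), Gstm2 (chr3:107981702-107986453) and Gstm1 (chr3:108012255-108017973) are neighbours on chromosome 3. Gstt3 (chr10:75774115-75781414) and Gstt1 (chr10:75783813-75798584) are neighbours on chromosome 10, and Gstp1 is at chr19:4035407-4037985.

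How alike the copies are decides how well the sequenced fragments can tell them apart, so the coding stretches of 60 bases that differ most are shown for 3 pairs. Gsta1 and Gsta2 share 97.9% of their coding bases. Even in the stretch with the most differences, in exon 6 of each (chr9:78241561-78241620 on the plus strand and chr9:78332125-78332184 on the minus strand), only 5 bases differ. Gstm1 and Gstm2 share 86.0%, and their most different stretch, in exon 8 (chr3:108012695-108012754 and chr3:107982055-107982114, both on the minus strand), has 18 differences. Gstp1 shares 98.1% with its neighbour Gstp2, and their most different stretch, in exon 5 (chr19:4036694-4036753 and chr19:4040988-4041047, both on the minus strand), has 5 differences. The sequences are those of GENCODE M21 on GRCm38 and read from 5′ to 3′ along the transcript, with capitals at the bases that differ within the pair.
Gsta1: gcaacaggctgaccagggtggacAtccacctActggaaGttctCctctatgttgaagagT
Gsta2: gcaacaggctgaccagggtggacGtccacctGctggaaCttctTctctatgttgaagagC
Gstm1: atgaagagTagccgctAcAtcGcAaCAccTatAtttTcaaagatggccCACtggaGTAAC
Gstm2: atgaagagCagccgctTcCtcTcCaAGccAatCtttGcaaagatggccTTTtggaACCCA
Gstp1: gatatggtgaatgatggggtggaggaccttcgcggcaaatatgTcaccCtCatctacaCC
Gstp2: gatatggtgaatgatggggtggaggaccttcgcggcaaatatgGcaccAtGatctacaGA

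Over the whole reference transcript, 81.8% of the windows of 100 bases of Gsta1, the length of a read, also occur in another gene, most often in Gm3776, another alpha class gene with no row of its own in the summed table. The share was 52.8% for Gstp1, all of it with Gstp2, 35.0% for Gsta2, 23.9% for Gstt3, 13.8% for Gstm3, 7.7% for Gstm1 and 0.6% for Gstm2, while Gsta3, Gsta4 and Gstt1 had none. The values of Gsta1, Gsta2 and Gstp1 are therefore the least certain as values of 1 gene. In addition, 98.01% of the Gstp1 value came from 1 assembled transcript that reaches over both Gstp1 and Gstp2, and 62.62% of the Gsta1 value from an assembled variant. The reference transcripts whose windows were compared hold only 0.05% of the Gsta1 value and 1.99% of the Gstp1 value. Windows of the other transcripts were not compared.

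The level differed widely between members. In ND livers the order by mean was Gstp1, Gsta3, Gstm1, Gstt1, Gstm2, Gstt3, Gsta4, Gsta2, Gstm3 and Gsta1. The ranges of Gstp1 and Gsta3 overlapped, as did those of Gstt3 and Gsta4 and those of Gsta2 and Gstm3, and the other neighbours in the order were apart in every liver. In HFD livers Gsta3 and Gstm1 came first with overlapping ranges, Gstp1 was the third, and Gstm3 had moved from the ninth place to the sixth, with ranges that overlapped along the run from Gstm3 through Gsta4 and Gsta1 to Gstt3. In CLE and LU livers Gstp1 again had the highest mean and Gstm3 the lowest. The range of Gstp1 overlapped that of the next gene in both groups.

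**Figure D1:**
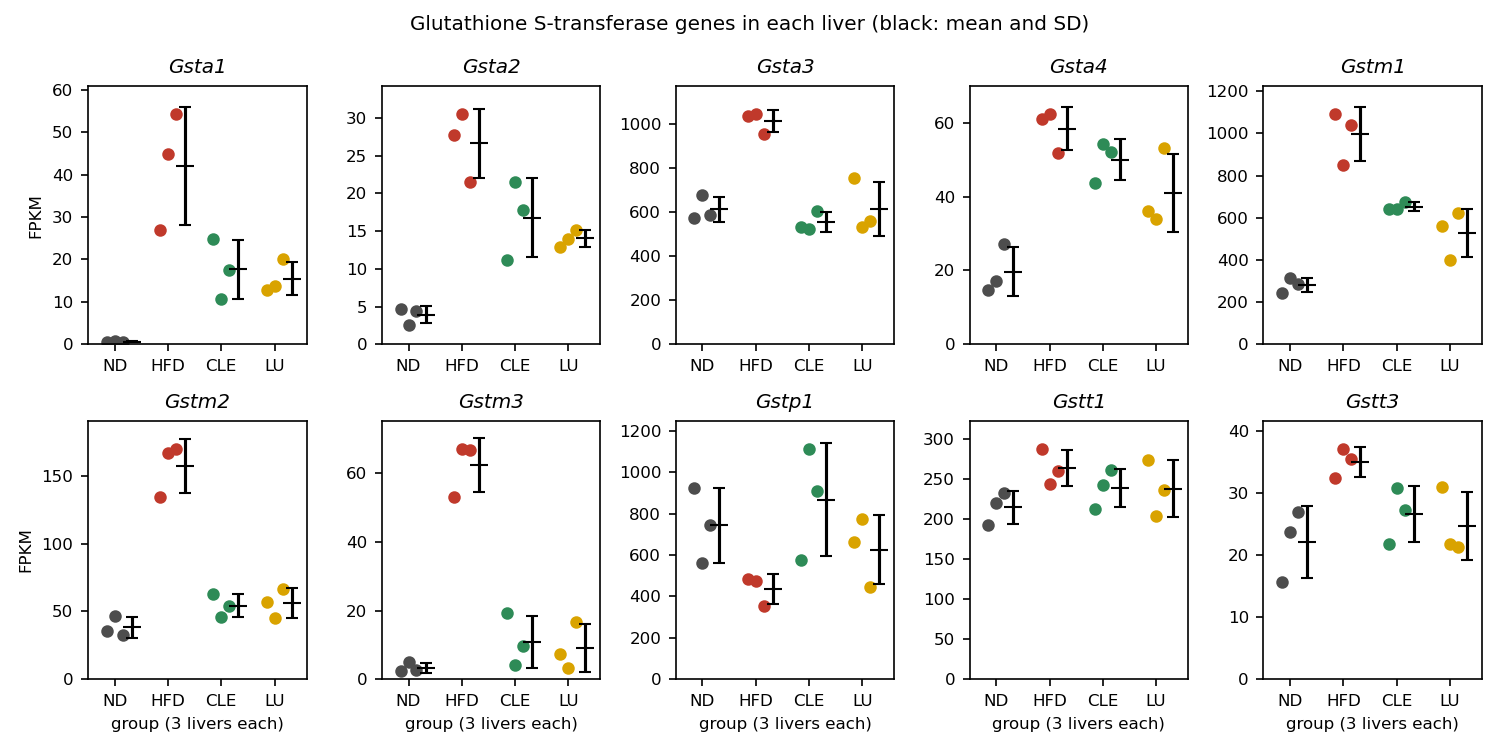
Each panel plots the summed FPKM of 1 gene in each of the 12 livers (coloured points, 3 per group) with the group mean and SD in black, on linear axes that start at 0. In 9 panels all HFD points lie above all ND points, and in the Gstp1 panel they lie below them.

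Among the alpha class genes, Gsta1 encodes an inducible enzyme with activity towards oxidized lipids. Gsta1 was 0.607, 0.726 and 0.545 FPKM in the ND livers, 27.0, 44.8 and 54.3 in the HFD livers, 24.7, 10.7 and 17.6 in the CLE livers, and 12.7, 13.7 and 19.98 in the LU livers. Every ND liver was below 1 FPKM and every liver on the HFD above 10, with CLE and LU livers below all HFD livers. In whole liver, here and below, fewer cells of a type and less RNA per cell cannot be told apart. The group means were 0.626 ± 0.0921, 42.0 ± 13.9, 17.7 ± 6.99 and 15.5 ± 3.93 FPKM (SD, n = 3 each). The difference between HFD and ND was 4.67 on the log2(FPKM + 1) scale (SE 0.28), a scale on which a change of such a low gene is understated, since the ratio of the means was 67.2. Gsta1 differed from HFD livers by -1.22 with CLE and -1.35 with LU (SE 0.28 each), and the ratio of its means to ND was still 28.2 and 24.7. Gsta2, its close copy, was 4.72, 2.59 and 4.41 FPKM in the ND livers, 27.8, 30.6 and 21.6 in the HFD livers, 11.1, 21.5 and 17.8 in the CLE livers, and 12.9, 14.0 and 15.1 in the LU livers. The lowest HFD liver, at 21.6 FPKM, and the highest CLE liver, at 21.5, nearly met, while the LU livers lay well below. Its log2 difference was 2.51 (SE 0.23) for HFD against ND, -0.67 (SE 0.23) for CLE against HFD, and -0.87 (SE 0.23) for LU against HFD. Since fragments may be shared out between these copies, their sum is safer than either value alone. It was 4.54 ± 1.07 in ND, 68.7 ± 12.1 in HFD, 34.5 ± 1.98 in CLE and 29.5 ± 4.96 FPKM in LU livers (SD, n = 3 each). Gm10639, another alpha class gene, shares more windows with Gsta2 than any other gene does. With it the sum was 4.715 ± 1.05, 76.7 ± 15.1, 37.2 ± 3.09 and 32.1 ± 6.38 FPKM (SD, n = 3 each). Gm3776, which shares the most windows with Gsta1, has no row to add. Within the CLE group the sum of Gsta1 and Gsta2 varied less than either gene, since Gsta1 was lowest and Gsta2 highest in the same liver, that of mouse 4.

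Gsta3, the major alpha class enzyme of mouse liver, was among the most abundant members in every group. It was 574, 678 and 586 FPKM in the ND livers, 1037, 1046 and 955 in the HFD livers, 534, 524 and 607 in the CLE livers, and 753, 532 and 557 in the LU livers. The HFD livers stood above all others, and the CLE and LU livers lay in or near the ND range. The log2 difference was 0.73 (SE 0.14) for HFD against ND, -0.87 (SE 0.14) for CLE against HFD and -0.74 (SE 0.14) for LU against HFD. CLE livers differed from ND livers by -0.14 (SE 0.14), while LU and ND means were 614 ± 121 and 613 ± 56.9 FPKM (SD, n = 3 each). Gsta4, whose enzyme is the one best suited to hydroxynonenal and related lipid aldehydes, behaved differently. It was 14.7, 17.1 and 27.2 FPKM in the ND livers, 61.0, 62.5 and 51.8 in the HFD livers, 43.7, 54.2 and 52.2 in the CLE livers, and 36.2, 33.8 and 53.2 in the LU livers. Both supplemented groups overlapped the HFD range and stood wholly above the ND range. The log2 difference was 1.56 (SE 0.21) for HFD against ND, -0.22 (SE 0.21) for CLE against HFD and -0.52 (SE 0.21) for LU against HFD.

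The mu class genes encode enzymes that conjugate epoxides and aromatic compounds, and Gstm1 is the abundant form in mouse liver. Gstm1 was 244, 312 and 285 FPKM in the ND livers, 1094, 851 and 1041 in the HFD livers, 643, 640.3 and 676 in the CLE livers, and 559, 401 and 623 in the LU livers. The 4 groups formed 4 steps without overlap, with ND lowest, then LU, then CLE, then HFD. Of the Gstm1 value, 12.48% came from an assembled transcript that reaches into Gstm2. The share of reference transcripts ran from 79.46% (ND mouse 3) to 98.2% (CLE mouse 4). The log2 difference was 1.82 (SE 0.16) for HFD against ND, -0.60 (SE 0.16) for CLE against HFD, -0.93 (SE 0.16) for LU against HFD, and 0.33 (SE 0.16) for CLE against LU. When Gstm2 was added, as the gene name in the deposited table does, the CLE and LU livers overlapped, at 686.5 to 730.2 and 446 to 689 FPKM. Gstm2 itself was 35.4, 46.8 and 32.2 FPKM in the ND livers, 135, 167 and 170.3 in the HFD livers, 63.0, 46.2 and 53.7 in the CLE livers, and 57.1, 45.0 and 66.5 in the LU livers. The CLE and LU ranges lay far below the HFD range and their lower ends met the ND range. This overlap with ND depends on an assembled variant that held 30.93% of the Gstm2 value. Reference transcripts held 65.03% to 67.89% in ND, 58.76% to 65.55% in HFD, 73.56% to 85.81% in CLE and 75.96% to 84.36% in LU livers. On the log2 scale Gstm2 differed by 2.03 (SE 0.18) for HFD against ND, -1.52 (SE 0.18) for CLE against HFD, and -1.48 (SE 0.18) for LU against HFD.

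Gstm3 had the largest log2 difference of the 10 genes between each supplemented group and HFD. It was 2.23, 4.98 and 2.56 FPKM in the ND livers, 53.3, 67.3 and 66.9 in the HFD livers, 19.2, 4.13 and 9.56 in the CLE livers, and 7.40, 3.14 and 16.7 in the LU livers. The HFD livers were far above all others, and in each supplemented group 1 liver, of CLE mouse 4 and LU mouse 3, was within the ND range while another was well above it. On the log2 scale Gstm3 differed by 3.95 (SE 0.50) for HFD against ND, -2.62 (SE 0.50) for CLE against HFD, and -2.89 (SE 0.50) for LU against HFD. These are larger SEs than those of any other member.

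Gstp1, which encodes the pi class enzyme, ran opposite to the other members. It was 921, 559.5 and 747 FPKM in the ND livers, 485, 472 and 352 in the HFD livers, 578, 1115 and 911 in the CLE livers, and 661, 772 and 446 in the LU livers. All HFD livers were below all ND and all CLE livers, and 1 LU liver, of mouse 8, lay within the HFD range. The group means were 743 ± 181, 436 ± 73.1, 868 ± 271 and 626 ± 166 FPKM in ND, HFD, CLE and LU livers (SD, n = 3 each), and the log2 difference was -0.75 (SE 0.27) for HFD against ND, 0.95 (SE 0.27) for CLE against HFD and 0.50 (SE 0.27) for LU against HFD. The sum with Gstp2, which the assembled transcript also covers, was 755.5 ± 182, 446 ± 73.4, 895 ± 285 and 640.2 ± 171 FPKM (SD, n = 3 each). Reference transcripts of Gstp1 alone were listed at 0 in 10 of the 12 livers, so the level rests on the assembled transcript.

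The theta class enzymes act on small halogenated molecules. Gstt1 was 192, 219.7 and 232 FPKM in the ND livers, 288, 244 and 260.3 in the HFD livers, 213, 242 and 261 in the CLE livers, and 274, 203 and 236 in the LU livers. The HFD livers were above the ND livers by a narrow margin, and the CLE and LU livers overlapped both. The log2 difference was 0.30 (SE 0.13) for HFD against ND, against a median of 0.11 over all genes tested, and it was 0.14 with median-of-ratios scaling, which takes that shift out. Gstt3 was 15.7, 23.7 and 26.9 FPKM in the ND livers, 32.5, 37.2 and 35.6 in the HFD livers, 21.9, 30.8 and 27.3 in the CLE livers, and 31.1, 21.8 and 21.3 in the LU livers. The HFD livers were above those of every other group, and the supplemented livers overlapped the ND range. On the log2 scale Gstt3 differed by 0.68 (SE 0.20) for HFD against ND, -0.40 (SE 0.20) for CLE against HFD and -0.51 (SE 0.20) for LU against HFD.

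**Figure D2:**
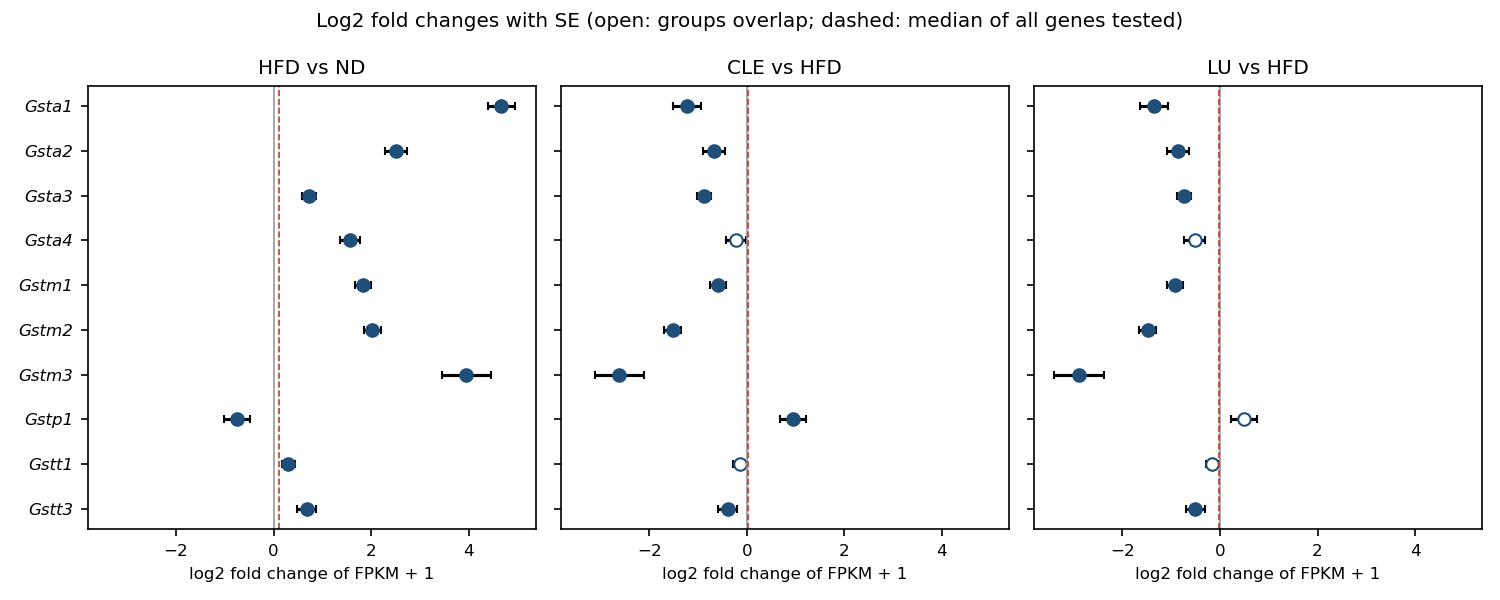
The 3 panels show the log2 fold change of FPKM + 1 (x axis) of each gene (y axis) with its SE, in turn for HFD against ND and for the CLE and LU groups against HFD. Filled points mark groups that do not overlap, open points groups that do, and the dashed line the median of all genes tested. Gsta1 and Gstm3 lie farthest to the right in the HFD panel, at 4.67 and 3.95, and Gstm3 farthest to the left in the other panels, at -2.62 and -2.89.

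Counted over the 10 genes, HFD and ND livers did not overlap for any, with 9 higher and Gstp1 lower in HFD. Of all genes tested, 28.6% were higher and 7.46% lower in this sense. The median log2 difference of the members was 1.69, beside 0.11 for all genes. Against HFD, CLE livers did not overlap for 8 genes, with Gstp1 higher and 7 lower, where 16.3% of all genes were higher and 14.9% lower. The members' median was -0.63, beside 0.02 for all genes. LU livers did not overlap HFD livers for 7 genes, none higher and 7 lower, where 13.3% of all genes were higher and 16.8% lower. Here the median of the members was -0.80, beside -0.02 for all genes. The same 7 genes are lower in both lists, namely Gsta1, Gsta2, Gsta3, Gstm1, Gstm2, Gstm3 and Gstt3. Both comparisons share the 3 HFD livers, and the members were chosen on these contrasts, so nothing is read from the counts.

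CLE and LU livers stood apart for Gstm1 alone, where 7.07% of all genes did so in either direction. The number of members apart was 3 without CLE mouse 2 and 2 without LU mouse 2 or LU mouse 8. Against ND livers, the CLE livers were higher without overlap for 4 genes, Gsta1, Gsta2, Gsta4 and Gstm1, where 31.8% of all genes were. For LU livers it was the same 4, where 29.4% of all genes were higher, and without LU mouse 3 it was 7 genes. No member was lower than ND without overlap in either group. The ND livers are shared by both comparisons.

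As a result of these differences the composition of the summed family changed. All 10 genes together came to 1938 ± 70.0 FPKM in ND, 3091 ± 129 in HFD, 2491 ± 295 in CLE and 2166 ± 206 FPKM in LU livers (SD, n = 3 each). Gstp1 held 38.1% ± 7.99 of the sum in ND livers, 14.1% ± 2.10 in HFD livers, 34.3% ± 7.31 in CLE livers and 29.0% ± 8.18 in LU livers (SD, n = 3 each). Gstm1 held 14.5% ± 2.29 in ND, 32.2% ± 3.52 in HFD, 26.5% ± 3.11 in CLE and 24.4% ± 5.42 in LU livers (SD, n = 3 each). Between ND and HFD livers the largest changes of mean share were those of Gstp1 and Gstm1, while Gsta3 held 31.7% ± 4.09 in ND and 32.8% ± 1.59 in HFD livers (SD, n = 3 each). The ratio of Gstm1 to Gstp1, which does not depend on the scaling of the libraries, was 0.265 to 0.558 in ND livers, 1.8 to 2.96 in HFD livers, 0.575 to 1.11 in CLE livers and 0.519 to 1.40 in LU livers. The HFD livers were above every other liver in this ratio.

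**Figure D3:**
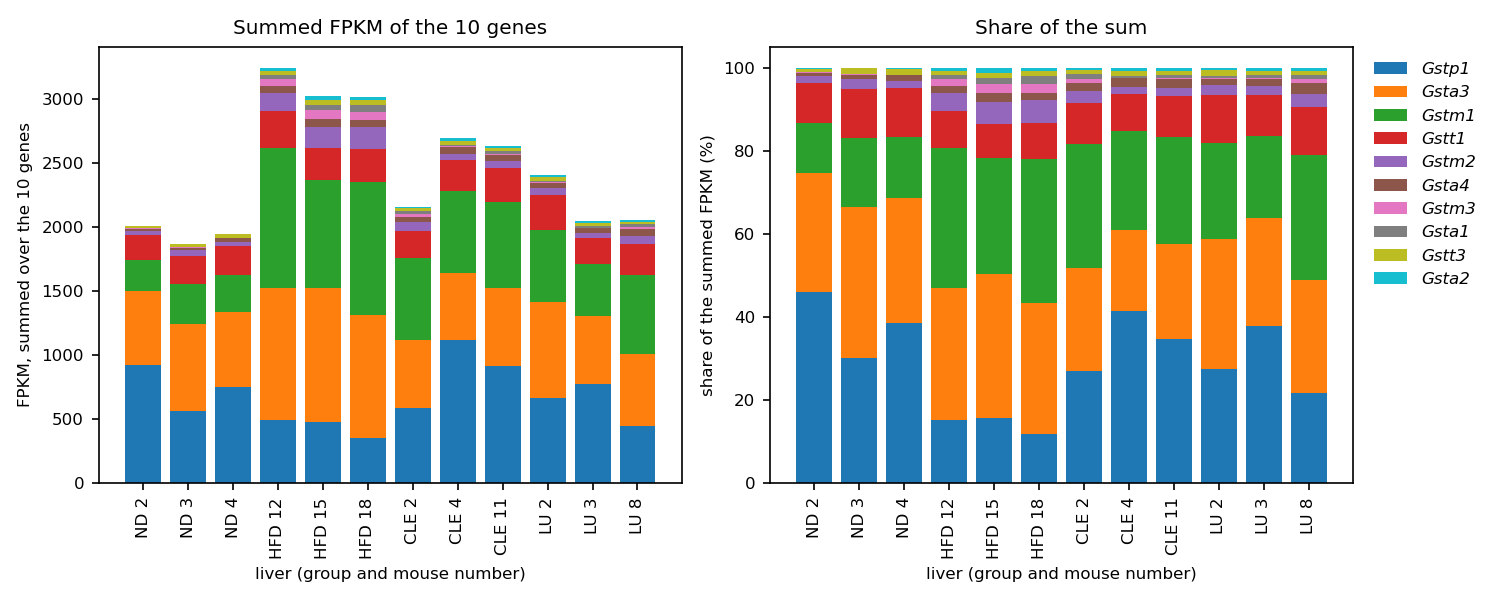
Stacked bars give, for each liver (x axis, group and mouse number), the summed FPKM of the 10 genes on the left and the share of each gene in that sum in percent on the right. The HFD bars are the tallest, at 3010 to 3239 FPKM, and have the smallest Gstp1 share, at 11.7% to 15.6%.

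Livers of 1 group also differed from each other, and some pairs of genes did so together. In each supplemented group and in ND the order of the livers by Gstp1 was the reverse of their order by Gstm3. In the HFD group it was not, at 485, 472 and 352 FPKM of Gstp1 and 53.3, 67.3 and 66.9 of Gstm3. An order of 3 livers has few possible forms. Among the CLE livers, mouse 4 had 1115 FPKM of Gstp1 and 4.13 of Gstm3, and mouse 2 had 578 and 19.2. Among the LU livers, mouse 3 had 772 and 3.14 FPKM, and mouse 8 had 446 and 16.7. In deviations from the group means on the log2 scale, the correlation across the 12 livers was -0.91 between Gstp1 and Gstm3, -0.84 between Gstp1 and Gstm2, and -0.78 between Gstp1 and Gsta1, while it was 0.76 between Gstp1 and Gsta2 and 0.89 between Gstm2 and Gstm3. These pairs were picked as those with the largest correlations in size, and other pairs were near 0, such as Gstp1 with Gstt1 at 0.025. All are descriptions over the same 12 libraries, whose scaling all genes share, with no test.

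**Figure D4:**
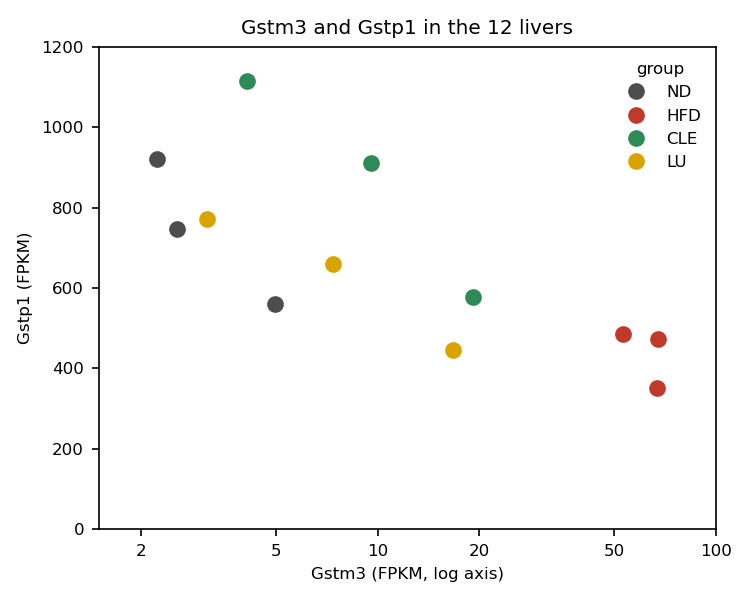
Each point is 1 of the 12 livers, with Gstm3 on the x axis (FPKM, log axis) and Gstp1 on the y axis (FPKM, linear axis from 0), coloured by group. The HFD points lie at the lower right, at 53.3 to 67.3 FPKM of Gstm3, and the points of the ND, CLE and LU groups each run from the upper left to the lower right.

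For each member, other genes with the most similar pattern over the 12 livers were found by Pearson's r on log2(FPKM + 1). They were Pepd (0.98) and Cers6 (0.97) for Gsta1, Cyp2a12 (0.97) and Fam25c (0.97) for Gsta2, Cyp2c29 (0.95) and Cyp2c55 (0.94) for Gsta3, and Cyp3a11 (0.96) and Cyp2a12 (0.95) for Gsta4. For the mu class they were Cyp2a22 (0.98) and Msra (0.98) for Gstm1, Aldh1a1 (0.97) for Gstm2, and Slc22a27 (0.97) and Mospd2 (0.97) for Gstm3. Gstp1 was most like Mup10 (0.91), a gene of the closely related major urinary proteins, and Mtch2 (0.89). The values were lower for the theta class, with Gm20319 (0.89) and Inmt (0.89) for Gstt1 and Apol7a (0.90) and Oaz2 (0.88) for Gstt3. The livers form 4 groups and all genes share the scaling of their libraries, and the genes named were picked as the most alike of the 12000 tested.

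Promoters are shown for 4 members, the close copies Gsta1 and Gsta2, whose levels differed most between HFD and ND among alpha class genes, Gsta3, and Gstp1, which ran the other way. The 250 bases before the annotated start were taken from RefSeq on GRCm38.p6 for 9 of the 10 members, 11 promoters in all, and the 150 bases next to the start are printed below on the strand of the gene. Gsta1 is at chr9:78230519-78230668 on the plus strand, Gsta2 at chr9:78347146-78347295 on the minus strand, Gsta3 at chr1:21240435-21240584 on the plus strand and Gstp1 at chr19:4037913-4038062 on the minus strand. Capitals mark letters that match a motif searched for, on either strand.
Gsta1: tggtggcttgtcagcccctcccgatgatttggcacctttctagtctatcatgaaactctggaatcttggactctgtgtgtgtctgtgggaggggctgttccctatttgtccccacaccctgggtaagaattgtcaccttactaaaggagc
Gsta2: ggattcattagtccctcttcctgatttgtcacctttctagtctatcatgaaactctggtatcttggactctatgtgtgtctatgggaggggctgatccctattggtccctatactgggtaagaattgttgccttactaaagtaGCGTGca
Gsta3: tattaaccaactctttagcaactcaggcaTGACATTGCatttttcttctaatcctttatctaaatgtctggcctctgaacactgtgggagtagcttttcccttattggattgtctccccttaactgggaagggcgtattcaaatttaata
Gstp1: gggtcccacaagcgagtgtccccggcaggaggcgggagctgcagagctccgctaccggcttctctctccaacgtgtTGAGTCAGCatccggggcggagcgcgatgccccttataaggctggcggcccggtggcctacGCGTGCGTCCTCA

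The 250 bases of Gsta1 and Gsta2 were 77.0% identical where they aligned. The motif TGACNNNGC, a core of the antioxidant response element that NRF2 binds, was found in 1 of the 11 member promoters, that of Gsta3 (bases -121 to -113 from the start), and in 10.2% of all 32851 promoters. Its other form TGAGNNNGC was found in 2 of them, those of Gstp1 (bases -74 to -66 and, on the other strand, -9 to -1) and Gstt1 (bases -89 to -81), and in 14.4% of all. The second Gstp1 match overlaps a match of GCGTG, the core of the element that AhR binds, at bases -13 to -9. GCGTG was found in 4 of the 11 promoters, of Gstm1, Gsta2 and Gstp1, and in 28.2% of all, and TTCNNNGAA, the core that STAT5 binds, in 1 promoter, of Gsta1 (bases -162 to -154), outside the printed stretch, and in 7.0% of all. The Gsta2 match of GCGTG (bases -7 to -3) and the second Gstp1 match of TGAGNNNGC lie inside reference transcripts. These start at chr9:78347158 and chr19:4037921, both on the minus strand. The assembled variant that held 62.62% of the Gsta1 value starts at chr9:78230514, before the printed stretch. The assembled transcript that held 98.01% of the Gstp1 value runs over its whole printed stretch (chr19:4035406-4042270). Whether these stretches lie in exons of the assembled transcripts was not examined, so they may not lie before the transcripts behind the levels. A match is only a match of letters, and none in this window says nothing about the factor.

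The other genes of glutathione metabolism were set beside the members. They are 94 genes in 7 lists, of which 91 were in the table and 79 passed the filter. They were tested with limma on log2(FPKM + 1) with Benjamini-Hochberg adjustment over all 12000 genes. The lists were drawn up with earlier results of these data known. Here and in the comparisons below, nothing is therefore read from their counts beside the shares of all genes. Between HFD and ND livers, 29 of the 79 were higher and 2 lower in HFD at an adjusted p of 0.05, beside 9.75% and 2.02% of all genes tested. An unadjusted p of 0.05 was passed by 41 of the 79 and by 26.9% of all genes. Of the 79, 3 genes (Cyp2b10, Cyp2b13 and Hpgds, the sigma class gene) reached the filter only with the HFD livers. Over all other livers together, each had a mean under 0.5 FPKM. By group, Cyp2b13 and Hpgds had means of 0.641 and 0.682 FPKM in CLE livers and 0.597 and 0.519 in LU livers. For Cyp2b10 and Cyp2b13 the filter fixed the direction of a difference from HFD. Without these 3, 27 of 76 were higher and 2 lower. The direction of calls depended on the scaling: of all genes called, 82.8% were higher in HFD with the values as deposited and 55.1% with median-of-ratios scaling, which left 14 of the 79 higher and 3 lower. Without each of the 6 livers in turn the number of the 79 that passed was 14 to 22, and it was lowest without HFD mouse 18, followed by 17 without HFD mouse 12, 18 without ND mouse 2 and 19 without ND mouse 4 or HFD mouse 15.

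Among the other cytosolic and mitochondrial GSTs, 3 of 13 were higher in HFD than in ND livers and none lower. Gm10639, an alpha class gene, shares 97.3% of its coding bases with Gsta1 and 98.5% with Gsta2. Its level was 0.151 to 0.197 FPKM in ND livers and 4.56 to 9.99 in HFD livers, with a log2 difference of 2.88 (SE 0.33, adjusted p = 0.000201). Gm10639 is too alike to the alpha class members to count as a separate measurement, so its adjusted p is no separate support. The numbers of listed genes that passed, here and for CLE against HFD, include it. Gstk1, the mitochondrial and peroxisomal kappa enzyme, differed by 0.44 (SE 0.11, adjusted p = 0.0249), and Gstm6, another mu class gene, by 0.59 (SE 0.17, adjusted p = 0.0424), and both calls were lost with median-of-ratios scaling. The most abundant gene of the list that did not pass, Gstz1, an enzyme of tyrosine breakdown, was 418 ± 13.5 FPKM in ND and 489.7 ± 32.8 in HFD livers (SD, n = 3 each). In the separate family of membrane GSTs, 1 of 4 was higher. Mgst3 was 3.47 to 4.31 FPKM in ND and 10.6 to 14.0 in HFD livers (log2 difference 1.44, SE 0.25, adjusted p = 0.0033). Mgst1, the most abundant gene of all these lists, was 4372 ± 459 and 5051 ± 648 FPKM (SD, n = 3 each) and did not pass.

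Of the genes that make and break down glutathione, 4 of 12 were higher in HFD livers and 1 was lower. Gclc, the catalytic subunit of the rate-limiting ligase, was 101, 87.2 and 90.2 FPKM in the ND livers and 172, 186 and 158 in the HFD livers (log2 difference 0.89, SE 0.14, adjusted p = 0.00165). Gss, which completes the tripeptide, Ggt6, of the gamma-glutamyltransferase family, and Chac2, which degrades glutathione, were higher by 0.50 to 0.65, calls that were lost with median-of-ratios scaling and with the GC correction. Cbs, which makes cystathionine on the way to cysteine, was lower by 0.45 on the log2 scale (SE 0.10, adjusted p = 0.0164). The Cbs call was lost without ND mouse 2, ND mouse 4, HFD mouse 12 or HFD mouse 18. It was also lost with the transcript of the highest mean and with reference transcripts alone. Cth, the next enzyme on the way to cysteine, was 485 ± 173 FPKM in ND and 367 ± 42.0 in HFD livers (SD, n = 3 each) and did not pass. Of the peroxidases and related enzymes, 2 of 13 were higher, Gpx4, which reduces lipid peroxides in membranes, by 0.67 (SE 0.14, adjusted p = 0.00866) and the low Gpx3 by 0.66 (SE 0.18, adjusted p = 0.0322). Gpx3 turned to -0.14 when its value was that of its most abundant transcript and not the sum. Gpx1, the abundant cytosolic peroxidase, was 1391 ± 224 FPKM in ND and 1975 ± 404 in HFD livers (SD, n = 3 each) and did not pass. Of the genes for export and mercapturate formation, 4 of 11 were higher and none lower. Abcc3, which exports conjugates into blood, was 42.6 to 70.3 FPKM in ND and 132 to 136 in HFD livers (log2 difference 1.28, SE 0.16, adjusted p = 0.000376). Abcc2, which exports them into bile, Abcc4 and the aminoacylase Acy3 were higher by 0.47 to 0.54, calls that were lost with median-of-ratios scaling, quantile normalization and the GC correction. The acetyltransferase Nat8f2, at 522 ± 48.9 and 598 ± 39.3 FPKM (SD, n = 3 each), did not pass.

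Of 15 regulators of GST transcription, 7 were higher in HFD than in ND livers and none lower. Nfe2l2, which encodes NRF2, was 31.8 to 35.3 FPKM in ND and 47.1 to 53.8 in HFD livers (log2 difference 0.56, SE 0.11, adjusted p = 0.00714). Its partners Mafg, Mafk and Maff were higher by 0.63 to 0.89, the CAR gene Nr1i3 by 0.93 (SE 0.26, adjusted p = 0.0345), Ahr by 0.84 (SE 0.21, adjusted p = 0.0219) and Stat5a by 0.78 (SE 0.19, adjusted p = 0.0197). All of these calls except that of Nfe2l2 were lost with median-of-ratios scaling. Hnf4a, the most abundant regulator that did not pass, was 159 ± 26.0 and 164 ± 18.5 FPKM (SD, n = 3 each). Of 11 targets that the same regulators share with GST genes, 8 were higher and 1 lower. The quinone reductase Nqo1 was higher by 1.23 (SE 0.18, adjusted p = 0.00108), the heme oxygenase Hmox1 by 0.80 (SE 0.14, adjusted p = 0.00284) and the epoxide hydrolase Ephx1 by 1.18 (SE 0.14, adjusted p = 0.000319). The cytochrome P450 genes Cyp2b9, Cyp1a2 and Cyp3a11 were higher by 1.17 to 5.77. The other P450 genes among the 8 were Cyp2b10 and Cyp2b13, which reached the filter only through HFD livers, at means of 0.0782 and 0.0699 FPKM in ND and 1.95 and 2.28 in HFD livers. Cyp4a14, a target of PPAR-alpha, was lower by 1.47 on the log2 scale (SE 0.38, adjusted p = 0.0262). The Cyp4a14 call was lost with no filter and without ND mouse 2, ND mouse 4, HFD mouse 12 or HFD mouse 18. Txnrd1, another NRF2 target, was 45.9 ± 4.02 and 49.2 ± 3.87 FPKM (SD, n = 3 each) and did not pass.

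With CLE, 2 of the 79 were higher and 4 lower than in HFD livers, beside 2.52% and 3.17% of all genes. An unadjusted p of 0.05 was passed by 22 of the 79 and by 29.4% of all genes. Without the 3 genes that reached the filter only through HFD livers, 2 of 76 were higher and 3 lower. Of all genes called, 44.4% were higher with CLE as deposited and 33.6% with a correction for GC content. Gclc was 110.2, 97.0 and 108 FPKM in the CLE livers, below all HFD livers (log2 difference -0.71, SE 0.14, adjusted p = 0.0223), and Gm10639 was lower by 1.27 on the log2 scale (SE 0.33, adjusted p = 0.0459). Cyp2b9 was 59.3 to 111 FPKM in HFD and 1.48 to 6.91 in CLE livers (log2 difference -4.37, SE 0.60, adjusted p = 0.00429). The fourth lower gene, Cyp2b10, had a mean of 1.95 FPKM in HFD and 0.394 in CLE livers, a direction that the filter fixed. The theta class gene Gstt2 was 63.4, 52.1 and 61.5 FPKM in the HFD livers and 96.5, 172 and 93.5 in the CLE livers (log2 difference 0.97, SE 0.20, adjusted p = 0.0246). Gstp2, whose value cannot be separated from that of Gstp1, was higher by 1.26 (SE 0.34, adjusted p = 0.0498). It is 1 of the 2 higher genes but no separate measurement. The Gstp2 call was lost without any liver but CLE mouse 2, at 0.88 (without CLE mouse 4) to 1.35. The Gclc call was lost without HFD mouse 12, HFD mouse 15 or CLE mouse 4, at -0.71, -0.65 and -0.65. The Gstt2 call was lost without any of the 3 HFD livers, at 0.88 to 1.02. The Gm10639 call was lost without any liver but CLE mouse 2, at -1.59 to -1.07, while Cyp2b9 passed in all alternatives. The number of the 79 that passed was 1 without HFD mouse 12 or 15, 3 without HFD mouse 18 or CLE mouse 4, and 9 without CLE mouse 2.

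With LU, none of the 79 was higher and 4 were lower than in HFD livers, beside 0.283% and 0.717% of all genes. An unadjusted p of 0.05 was passed by 26 of the 79 and by 20.4% of all genes. Without the same 3 genes, 3 of 76 were lower. Gclc was 94.6, 81.9 and 121 FPKM in the LU livers (log2 difference -0.80, SE 0.14, adjusted p = 0.0175), and Nqo1 was 10.9 to 13.4 FPKM in HFD and 4.87 to 8.56 in LU livers (log2 difference -0.85, SE 0.18, adjusted p = 0.0443). Cyp2b9 was 1.06 to 11.4 FPKM in LU livers (log2 difference -4.27, SE 0.60, adjusted p = 0.00758). Cyp2b10, whose direction the filter fixed here too, had a mean of 0.187 FPKM in LU livers. Leaving out HFD mouse 12 or 15 or LU mouse 2 or 3 ended the Gclc call, at -0.80, -0.75, -0.78 and -0.68. The Nqo1 call was lost without any liver but LU mouse 8, at -0.89 to -0.71. The number that passed was 1 without HFD mouse 15, LU mouse 2 or LU mouse 3, 2 without HFD mouse 12, and 6 without LU mouse 8. Nqo1 in CLE livers differed from HFD livers by -0.55 (SE 0.18) and did not pass (adjusted p = 0.0761 in limma), and it differed by 0.30 (SE 0.18, adjusted p = 0.976) between CLE and LU livers. Gstt2 was 96.6, 101.2 and 101.1 FPKM in the LU livers, all above the HFD livers. This difference of 0.75 (SE 0.20) did not pass (adjusted p = 0.0853 in limma), and CLE and LU livers differed by 0.22 (SE 0.20, adjusted p = 0.976). Gm10639 in LU livers differed from HFD livers by -1.37 (SE 0.33, adjusted p = 0.0713), and CLE and LU livers differed by 0.10 (SE 0.33, adjusted p = 0.987).

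In the direct comparison of CLE with LU livers, 0 of the 79 genes and 0.00833% of all genes passed in limma, and 5 of the 79 and 4.27% of all genes passed an unadjusted p of 0.05. Against ND livers, the CLE livers had 26 of the 79 higher and 1 lower, beside 20.6% and 6.12% of all genes, and the LU livers had 21 higher and 3 lower, beside 10.9% and 3.7%. These comparisons share the ND livers. Deviations of the ND and the supplemented libraries from the gene means relate to GC content in opposite directions. With the correction for GC content, the genes that passed numbered 17 in place of 27 for CLE and 15 in place of 24 for LU. Without ND mouse 2, ND mouse 4 or LU mouse 2, the number that passed for LU against ND was 12 or 13 in place of 24.

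**Figure D5:**
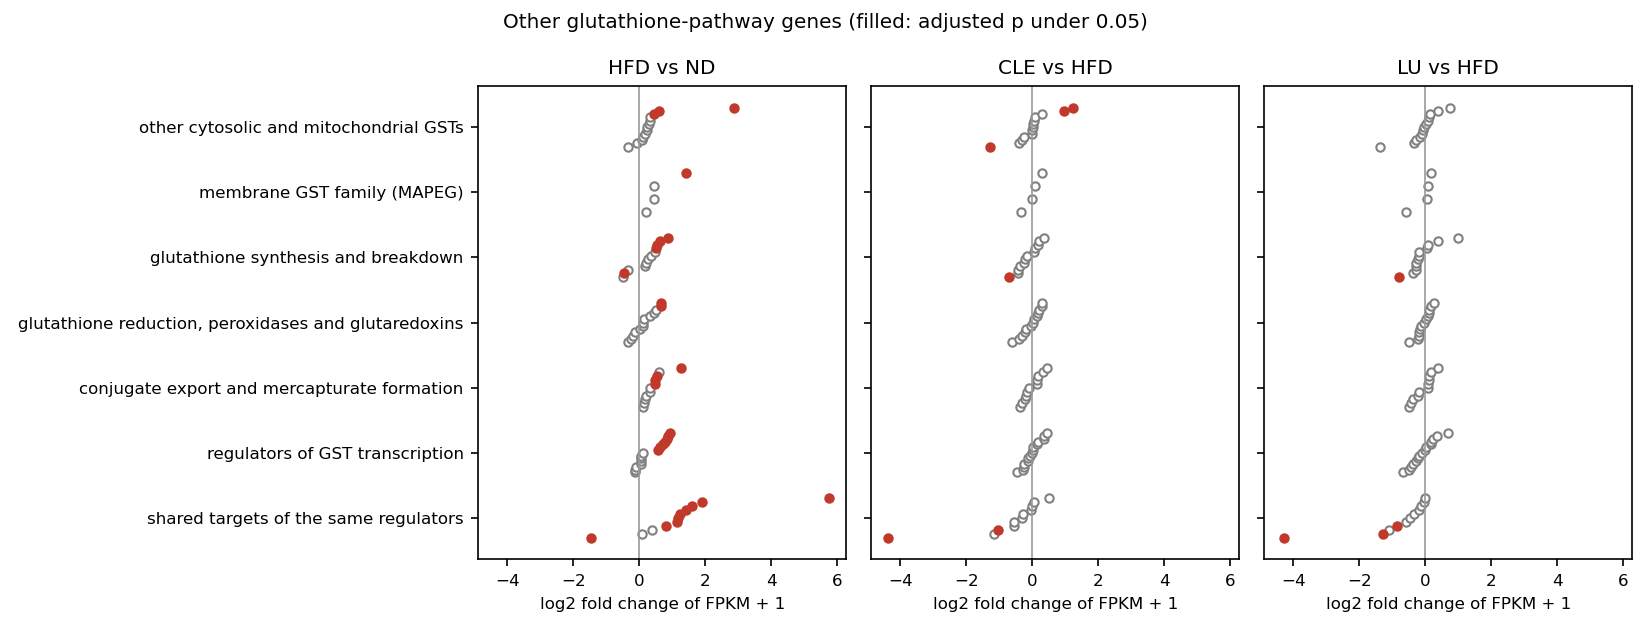
Points are the 79 tested genes of the 7 lists (y axis, spread within a list by their value) with their log2 fold change of FPKM + 1 (x axis), in turn for HFD against ND and for the CLE and LU groups against HFD. Filled points passed an adjusted p of 0.05. In the HFD panel 29 filled points lie to the right of 0 and 2 to the left, and in the other panels 6 and 4 points are filled.

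Several measures of the whole libraries moved with the diets. The shares of all genes tested that passed were 9.75% higher and 2.02% lower for HFD against ND livers. Against HFD livers, 2.52% were higher with CLE and 0.283% with LU. The marker calls are for the values as deposited, and no other scaling is shown for them. As deposited, 82.8% of all calls were higher in HFD than in ND livers, and 55.1% with median-of-ratios scaling. Of 9 pericentral hepatocyte markers, 5 were higher in HFD than in ND livers and none lower (Glul, Cyp1a2, Slc1a2, Lgr5 and Rgn), and their summed level was 7070 to 7880 FPKM in ND livers, 9570 to 11500 in HFD, 9640 to 10700 in CLE and 9430 to 12100 in LU livers. None of the 9 passed for CLE or LU against HFD. Of 9 periportal markers 1, Pck1, was lower in HFD livers. Of 7 macrophage markers 4 were higher in HFD than in ND livers, with sums of 103 to 115 FPKM in ND, 153 to 228 in HFD, 150 to 191 in CLE and 115 to 197 in LU livers. Of 7 stellate cell markers 5 were higher, with sums of 73.6 to 105 FPKM in ND, 133 to 167 in HFD, 130 to 209 in CLE and 131 to 175 in LU livers, and Des was higher in CLE than in HFD livers. Stab2, 1 of 6 endothelial markers, and Fabp4, the 1 of 4 adipocyte markers that passed the filter, were also higher in HFD than in ND livers. The other adipocyte markers stood out in LU livers, where Adipoq was 0.4999 to 0.759, Plin1 0.137 to 0.327 and Lep 0.139 to 0.187 FPKM. In the other 9 livers Adipoq was at most 0.145 and Plin1 at most 0.0274 FPKM, and Lep was listed at 0. None of the 3 cholangiocyte and 3 lymphocyte markers tested passed in these comparisons. Of 7 hepatocyte markers none passed for HFD against ND, Apoa1 and Serpina1a were higher with CLE and Serpina1a with LU than in HFD livers, and Alb was listed at 0 in 11 of the 12 livers although the tissue is liver, so a 0 can be a failed estimate. The deviation of each library from the gene means was related to the GC content of the transcript over 8751 genes. Spearman's correlation ran from -0.41 to -0.13 in ND and HFD livers and from 0.19 to 0.50 in CLE and LU livers. Such deviations are relative to the other libraries and do not give the relation of expression itself to GC content. The part of GC content cannot be told apart from the supplements. The member transcripts had a GC content of 42.6% to 55.8%. The part of these in the differences of the GST genes was not tested.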

How the data were processed

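Liver RNA of 12 mice, 3 per group, was sequenced as paired reads of 100 bases. Per the submitters' processing notes the tools were CASAVA 1.8.2, Bowtie2 2.2.3, TopHat2 2.0.12 and Cufflinks 2.2.1, and the authors deposited FPKM per transcript. Whether these hold the normalization factors of the study's methods is not stated, and the build is not given in the sources used here, but 87.6% of 76916 reference transcripts have their GENCODE M21 ends on GRCm38. Read counts cannot be recovered, so depth is unknown and no counting interval is given.

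Here, the values of 142634 transcripts were summed per M21 gene by reference transcript. The design planned sums by the deposited gene name, under which only 8 of the 10 members have their own rows, because Gstm2 is held under Gstm1 and Gstt3 under a name shared with other genes. Those sums were kept as an alternative. Groups were compared with limma 3.58.1 in R 4.3.3 on log2(FPKM + 1) with variance trend, all 12 livers in 1 fit (12.7 degrees of freedom), genes whose mean reached 0.5 FPKM and two-sided Benjamini-Hochberg adjusted p at 0.05. Log2 differences of members and their SEs come from this fit, with no p. The fit was tested on simulated data. Motifs and sequence identity were computed in Python 3.11.15.

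The members and lists were chosen with earlier results of these data known, which holds also for the form TGAGNNNGC and for Gm3776. Named are all members, each listed gene that passed in HFD against ND, CLE against HFD or LU against HFD, the most abundant that did not pass in each list, and the 2 genes most like each member, of which 1 is not reported here. The marker genes named are those that passed, and Alb. Alternatives were a pseudocount of 0.1, no filter, a minimum of 5 FPKM, median-of-ratios and quantile scaling, 2 groups alone, no trend, the transcript with the highest mean, reference transcripts alone, each mouse left out and the mouse number as a block. Corrections for GC content and length and sums by deposited names, and counts without genes that reached the filter only through HFD livers, were added after seeing the data. The p-values measure the spread between these mice, which the methods describe as housed individually.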

Additional observations from a re-analysis of the deposited data

How the results depend on the processing

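For the 10 members, 809 of 848 log2 differences under the alternatives were within 1 SD of the spread between livers of the reported value, and 39 moved farther. A sign opposite to the reported one was seen in 32, but no difference between groups that did not overlap changed sign. With the GC correction Gsta3 moved from -0.87 to -0.70 for CLE and from -0.74 to -0.57 for LU against HFD. Gstm1 moved from 1.23 to 0.99 for CLE against ND. With reference transcripts alone the Gstp1 difference for HFD against ND was 0, because those transcripts are listed at 0 in both groups. Gstm1 no longer separated CLE from LU livers (0 members apart in place of 1) with quantile normalization, with either correction for GC content or length, and with sums by the deposited gene names. With single livers left out, the members apart numbered 10 for HFD against ND, 7 to 9 for LU against HFD, 8 to 9 for CLE against HFD, 1 to 3 for CLE against LU, and 4 to 6 and 4 to 7 for CLE and LU against ND.

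The number of listed genes called for HFD against ND, 31, was 17 with median-of-ratios scaling, 17 with the transcript of the highest mean, 15 with reference transcripts alone and 19 with the GC correction. Of the 31 genes, 11 passed in every alternative in which they were tested, 9 of them not counting genes that reached the filter only through HFD livers. The share of higher calls among all genes was 82.8% as deposited and 55.1% to 56.3% with the other scalings and corrections, and for CLE against HFD it was 44.4% as deposited and 33.6% with the GC correction. The median of all genes for HFD against ND moved from 0.11 to between -0.02 and -0.01. For CLE against HFD, 6 genes became 3 with a pseudocount of 0.1, 1 with no filter, 10 with quantile normalization and 2 with the 2 groups alone. For LU against HFD, 4 became 2 with no filter and 7 with reference transcripts alone. Against ND, 27 for CLE and 24 for LU became 17 and 15 with the GC correction. In HFD against ND, Gpx3 turned to -0.14 with the transcript of the highest mean. With single livers left out the numbers were 14 to 22 for HFD against ND, 1 to 9 and 1 to 6 for CLE and LU against HFD, 0 for CLE against LU, and 21 to 29 and 12 to 20 for CLE and LU against ND. A setting with fewer genes or livers tests less by construction, and for the others the cause was not tested.

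The mouse numbers gave no sign of pairing the livers, though few livers share a number (correlations of -0.25 to 0.19 between same-numbered livers). In the fit with the number as a replicate block, 4 listed genes passed for CLE against ND and 0 for LU against ND. That fit left out the HFD livers and held a term for each mouse number, so few degrees of freedom remained. Its lower numbers therefore cannot be read as an effect of pairing. HFD mice share no number with other groups, and CLE and LU mice share 1. Depth is unknown, so how far it limits the values of low genes such as Gsta1 in ND livers cannot be given.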
